A study of Bos taurus with 14 samples.

Results

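The mammary glands described here are those of the 3 cows, of 14 in the study, in which the transcript of SAA3 had a log2 intensity above 10. SAA3 encodes a serum amyloid A protein. The cows were chosen by that array value alone, through the SAA3 probe set with the highest mean, and were compared with the other 11 cows over 10740 probe sets. SAA3 was 13.82 and 12.80 log2 in the Control cows of blocks 304 and 302, and 10.20 log2 in the Omega cow of block 306. In the other 11 cows its lowest, median and highest values were 6.70, 7.23 and 9.14 log2. The cow just above the limit was thus at 10.20 and the cow just below it, the Omega cow of block 305, at 9.14. These values made the groups and support nothing further. The pair at 13.82 and 12.80 are called the highest cows below, the cow at 10.20 the intermediate cow, and all 3 the high SAA3 cows. The 11 others are the low SAA3 cows.

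All 14 animals were Holstein-Friesian cows, with 1 Affymetrix array of mammary gland RNA each. Each of 7 blocks held a pair of cows alike in parity, calving date and milk performance, as the stated design has it, and 1 cow of each block received each diet. By the labels the match was not close in every block. The Omega and Control cows of block 303 had parity 4 and 6 and calved 2 and 50 days after the first calving in the study. Those of block 308 had parity 4 and 6. The Omega cows (n = 7) were given a concentrate that held linseed, a source of alpha-linolenic acid, and the Control cows (n = 7) a concentrate without linseed, on the same basal diet. Feeding began 3 weeks ahead of the calving date expected and went on until 6 weeks after calving. The high SAA3 cows were 1 Omega and 2 Control cows, and the low SAA3 cows 6 Omega and 5 Control cows. The sources used here do not give the day on which tissue was taken, or any record of udder health. Transcripts of the milk proteins CSN3, PAEP, CSN1S2 and LALBA lay between 14.50 and 14.81 log2 in the high SAA3 cows and between 14.50 and 14.80 log2 in the low SAA3 cows, at the top of a scale that ended at 14.8, so the labelled tissue had its defining markers in every cow. The table holds log2 values that are compressed at both ends.

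Serum amyloid A proteins belong to the acute phase response, the set of proteins that tissues release in large amounts during infection, injury or inflammation. The liver makes most of them, but SAA3 is the form made locally, and the epithelium of the udder produces it during mastitis and when the gland stops secreting. Other proteins that the gland makes in those states are lactoferrin, which binds iron, haptoglobin, which binds haemoglobin, and components of complement, the protein cascade that marks microbes for uptake.

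A transcript was called graded where both highest cows lay beyond the intermediate cow, and the intermediate cow beyond all 11 low SAA3 cows. Without regard to the order among the 3 cows, 702 probe sets (6.54%) lay above all 11 low SAA3 cows in each of them and 700 (6.52%) below. By the full order 518 probe sets (4.82% of 10740) were graded higher and 483 (4.5%) graded lower. Counted over symbols, 394 of 6697 (5.88%) were graded higher and 298 (4.45%) graded lower. Of all symbols 49.5% had a higher mean in the high SAA3 cows. The counts per list below are to be set against these shares, which a short list can exceed by a few genes alone. Since the array values set the order of the cows, these differences are descriptions and have no test. The graded higher probe sets differed by a median of 0.66 log2 between the means of the high and the low SAA3 cows, and the graded lower ones by -0.48. A difference over 1 log2 was found in 119 graded higher (1.11%) and 49 graded lower probe sets (0.456%). The median gap between the intermediate cow and the nearest low SAA3 cow was 0.11 log2 for graded higher and 0.069 log2 for graded lower probe sets. Many of the calls therefore turn on small differences. In bulk tissue, fewer cells of a type and less RNA per cell cannot be told apart.

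**Figure D1:**
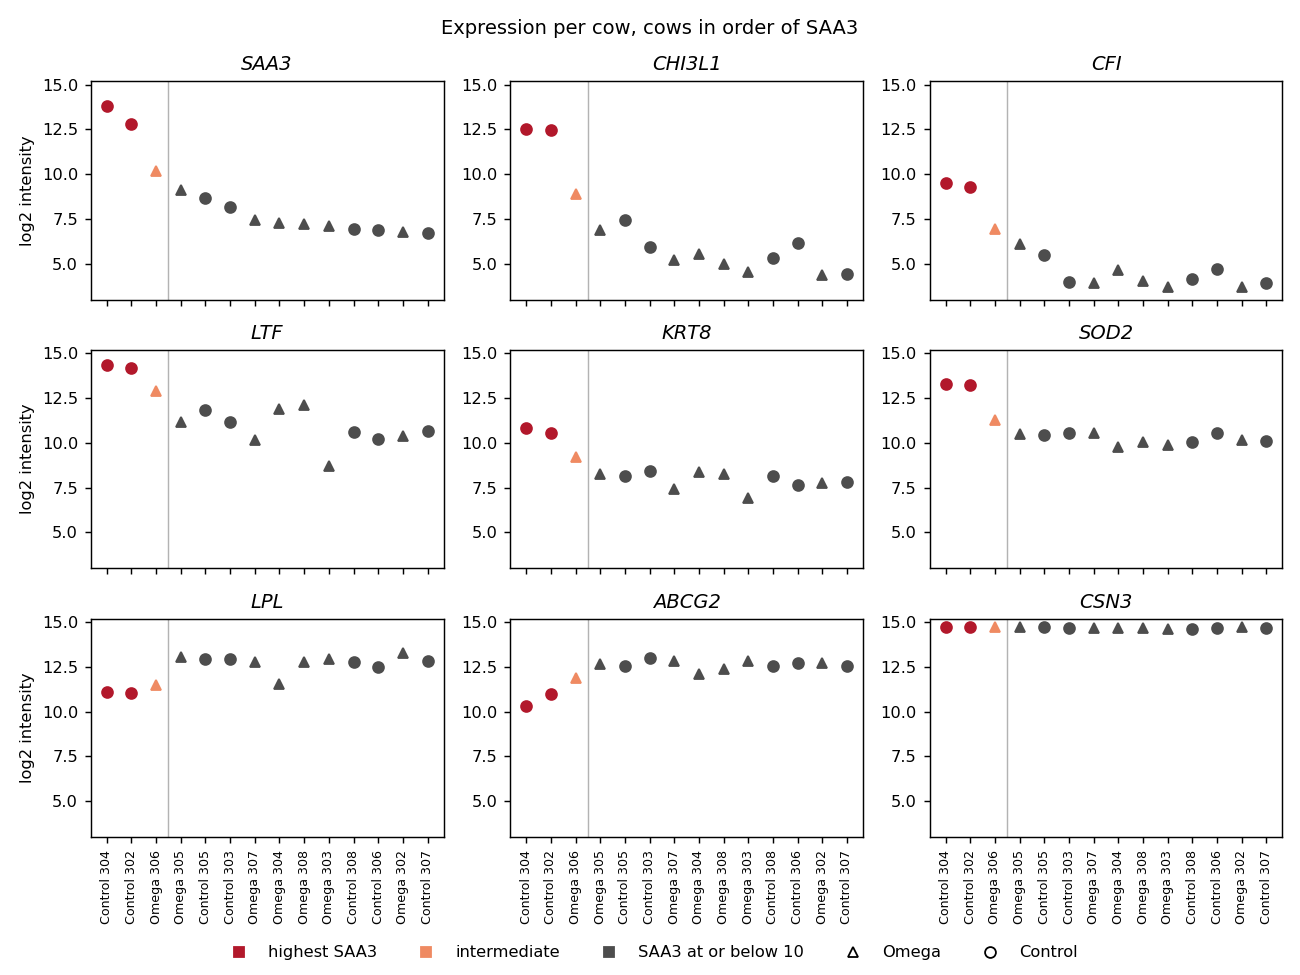
Log2 intensity of single transcripts (vertical axes) in each of the 14 cows, ordered from left to right by falling SAA3, with 1 point per cow, the SAA3 group shown by colour and the diet by shape. CHI3L1 and LTF stand highest in the Control cows of blocks 304 and 302, lie lower in the Omega cow of block 306, at 8.90 and 12.90 log2, and lower still in the 11 low SAA3 cows.

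The arrays of the highest cows stood apart from all others. They scored 50.6 and 47.1 and the intermediate cow 10.7, against -19.7 to 2.35 in the low SAA3 cows, on principal component 1 (49.0% of the variance). On component 2 (8.26%) the intermediate cow, at 19.3, lay outside the -17.1 to 15.5 of the low SAA3 cows. The highest cows lay within it, at -3.1 and -4.8. The median correlation of the highest cows with the other arrays was 0.951 and 0.959, and that of the intermediate cow 0.980, against 0.984 to 0.988 in the low SAA3 cows. The pair correlated with each other at 0.986. Some control probe sets moved with the same order. The 3' minus 5' difference of the EF1A controls was -2.66, -2.37 and -2.30 log2 in the high SAA3 cows and -2.29 to -1.94 in the low SAA3 cows, and the Bacillus spike-in mean was 6.50, 6.78 and 7.34 log2 against 7.08 to 7.84. The same 3' minus 5' difference was 0.778, 0.804 and 0.849 log2 for GAPD, against 0.809 to 1.402, so that here too the highest cows lay outside the range. It was 2.43, 2.44 and 2.28 log2 for actin, within the 2.09 to 2.69 of the low SAA3 cows. The part of these measures in the results was not tested.

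Among the named transcripts, those of defence proteins held the largest differences. CHI3L1, a chitinase-like glycoprotein secreted by macrophages, neutrophils and epithelium, was at 12.52 and 12.49 log2 in the highest cows and 8.90 in the intermediate cow. Its lowest, median and highest values in the low SAA3 cows were 4.35, 5.31 and 7.44. The groups did not overlap and differed by 5.78 log2, or 54.8-fold. LTF, the iron-binding lactoferrin of milk, was at 14.37, 14.20 and 12.90 log2 in the cows of blocks 304, 302 and 306, and at 8.69, 10.67 and 12.11 (lowest, median, highest) in the low SAA3 cows. Here the intermediate cow came within 1 log2 of the nearest low SAA3 cow. LBP, which presents bacterial lipopolysaccharide to CD14, was at 9.95, 10.29 and 8.46 log2, against 6.48, 7.07 and 7.88. Although LBP did not overlap, its receptor CD14 ran the other way, at 6.27, 6.41 and 6.27 log2 in the high SAA3 cows, below the median of 6.88 in the low SAA3 cows.

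Of the 26 acute phase and antimicrobial genes measured, 3 were graded higher (11.5%, against 5.88% of all symbols) and 3 lower (11.5%, against 4.45%). A higher mean in the high SAA3 cows was found in 10 (median difference -0.13 log2). SAA3, which made the groups, is 1 of the 3 graded higher and 1 of these 10, and is not evidence. LPO, the lactoperoxidase of milk, was one of those graded lower, at 8.82, 8.06 and 8.87 log2, against 9.03, 9.99 and 10.75. The nearest low SAA3 cow was 0.16 log2 away. The list thus did not move one way.

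HP, haptoglobin, separated the highest cows from each other. It was at 10.00 log2 in the Control cow of block 304, but at 4.84 in that of block 302 and at 6.12 in the intermediate cow, against 3.49, 3.95 and 4.48 in the low SAA3 cows. All 3 values lay above the low SAA3 cows, while the order of SAA3 was not kept. LAP, the lingual antimicrobial peptide, which was picked after its values were seen, was at 11.34 log2 in the Control cow of block 304 and at 6.68 and 6.24 in the other two, against 4.99, 5.46 and 6.60.

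In the complement list 7 of 21 measured genes (33.3%, against 5.88% of all symbols) were graded higher and none lower. A higher mean in the high SAA3 cows was found in 13 of the 21 (61.9%, against 49.5% of all symbols). The median difference over the list was 0.84 log2, against -0.005 over all symbols. The graded genes included both parts of the alternative route and inhibitors. CFI, the protease that inactivates C3b and C4b, was at 9.50, 9.29 and 6.93 log2, against 3.70, 4.04 and 6.11 in the low SAA3 cows. CFB, the catalytic subunit of the alternative pathway convertase, was at 10.45, 8.25 and 7.66, against 4.93, 5.87 and 6.26. C1QA, a chain of the recognition molecule of the classical route, was at 9.11, 8.51 and 7.73, against 6.83, 7.35 and 7.55. In these genes the intermediate cow lay above every low SAA3 cow, most narrowly in C1QA.

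C4BPA, a chain of the C4b-binding inhibitor, was not graded but had the second largest difference of the named genes after CHI3L1, at 5.28 log2. It was at 10.67 log2 in the Control cow of block 304, 8.26 in that of block 302 and 9.46 in the intermediate cow, against 3.79, 4.05 and 5.32. The groups thus did not overlap, while the intermediate cow stood above one of the highest cows. C3, the central component, which was picked after its values were seen, was at 11.77, 12.38 and 12.16 log2, against 10.18, 10.59 and 10.89. C3 likewise did not overlap and did not follow the order of SAA3. CLU, the secreted chaperone clusterin, which also holds back the terminal complement complex, was graded, at 12.28, 12.87 and 10.01, against 7.90, 8.54 and 9.47.

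**Figure D2:**
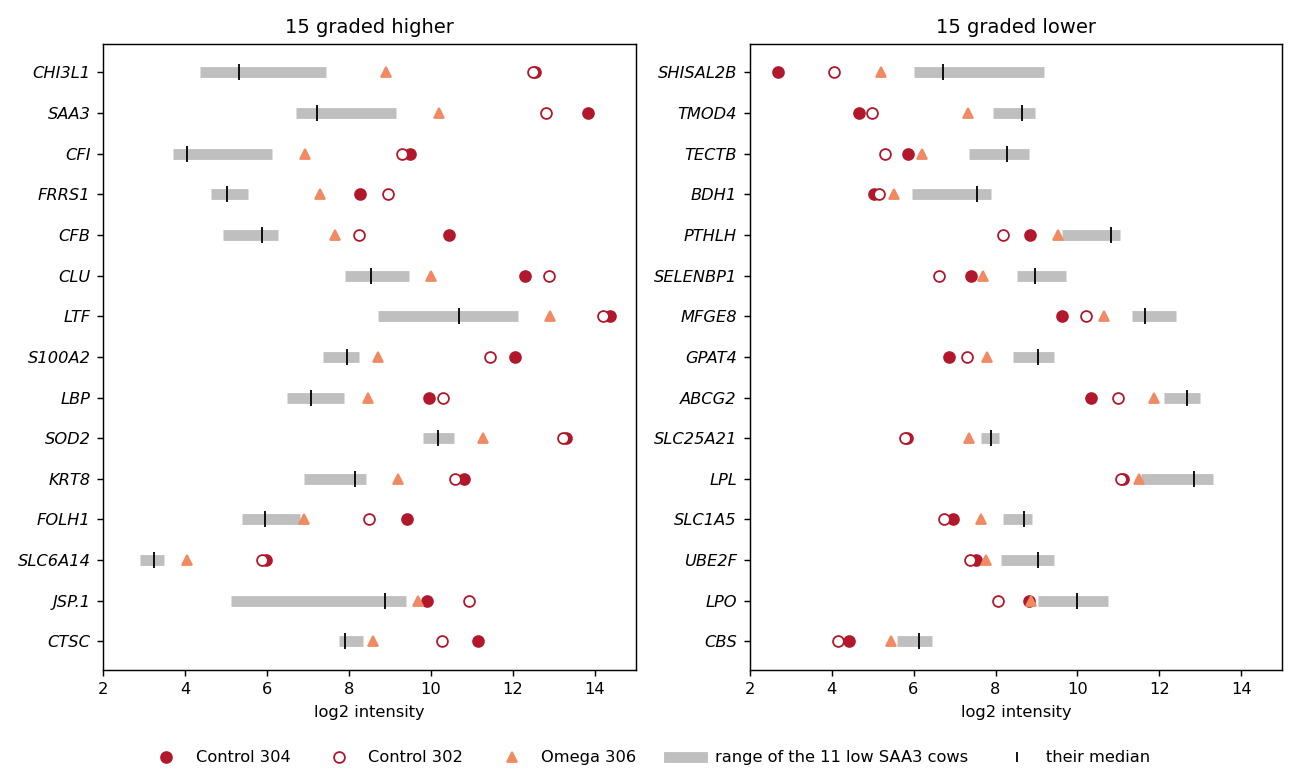
Log2 intensity (horizontal axes) of the 15 graded higher and 15 graded lower symbols with the largest differences of means, with a mark for each high SAA3 cow, and the range and median of the low SAA3 cows as a bar with a tick. CHI3L1 has the largest difference among the graded higher symbols shown, 5.78 log2, and SHISAL2B the largest among the graded lower symbols, -2.91 log2.

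S100 proteins are small calcium-binding proteins, several of which are released in inflammation. Of 12 measured, 3 were graded higher (25%, against 5.88% of all symbols) and none lower. A higher mean in the high SAA3 cows was found in 10 of the 12 (median difference 1.17 log2). S100A2, which is made by epithelial cells, was at 12.05, 11.43 and 8.70 log2, against 7.37, 7.94 and 8.23. S100A12 was at 7.09, 6.00 and 5.82, against 4.39, 4.82 and 5.24, and S100A11 at 11.28, 11.52 and 10.63, against 9.54, 9.83 and 10.21. The neutrophil calprotectin subunits, picked after their values were seen, did not share this order. S100A9 was at 7.75 log2 in the Control cow of block 304, and at 4.35 and 4.30 in the other two, against 3.91, 4.27 and 4.37. S100A8 was at 7.37, 5.28 and 6.04, against 4.85, 5.40 and 6.16. For both, only the cow of block 304 lay above all low SAA3 cows. S100A14 was not graded either. It was at 9.86 and 8.71 log2 in the highest cows but at 6.40 in the intermediate cow, within the 5.97 to 6.67 of the low SAA3 cows.

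Of 34 cytokines and chemokines measured, 0 were graded higher and 1 graded lower, which in a list of this length is close to the shares of all symbols (5.88% and 4.45%). IL1B, IL6 and TNF, which start the acute phase response, had differences of -0.09, -0.15 and -0.10 log2, and CXCL8, which attracts neutrophils, 0.38. These 4 were picked after their values were seen and lay between 2.88 and 4.41 log2 in all cows, near the lower end of the scale. CXCL5, another neutrophil attractant, was at 6.39 and 5.50 log2 in the highest cows but at 3.22 in the intermediate cow, within the 2.77 to 3.63 of the low SAA3 cows. IL18 was at 7.20, 6.44 and 5.11, against 4.18, 4.59 and 5.17. Among the interferon-stimulated genes 5 of 23 were graded higher and none lower, such as IFI30, a lysosomal thiol reductase of antigen processing, at 7.84, 7.54 and 7.04, against 5.67, 6.25 and 6.48. In the antigen presentation list 4 of 20 were graded higher and none lower. With quantile normalization the counts graded higher were 3 of 23 and 2 of 20. JSP.1, a class I histocompatibility gene, was at 9.89, 10.92 and 9.67, against 5.11, 8.86 and 9.38. Histocompatibility probe sets share sequence between loci and differ between alleles, so the level of JSP.1 in a given cow is uncertain.

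Markers of cell types moved to different extents. Of 20 macrophage and dendritic markers, 7 were graded higher (35%) and 1 lower (5%), with a median difference of 0.73 log2. Their summed linear intensity was 8195, 7595 and 4754 in the high SAA3 cows and 3496 to 5027 in the low SAA3 cows, so that the intermediate cow lay within the range of the low SAA3 cows. TYROBP, a signalling adaptor of myeloid and natural killer cells, was at 7.72, 7.89 and 6.93 log2, against 5.60, 6.09 and 6.48. CTSS, a protease of antigen-presenting cells, was at 10.89, 11.12 and 10.16, against 9.08, 9.68 and 10.11. LGALS3, a galectin made by macrophages and by epithelium, was at 10.70, 10.40 and 8.92, against 7.47, 8.11 and 8.79.

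Of 19 neutrophil markers, 2 were graded higher and 1 lower. A higher mean in the high SAA3 cows was found in 13 (68.4%, against 49.5% of all symbols). The median difference over these 19 markers was 0.20 log2. Their summed intensity was 7334, 7061 and 1382 in the high SAA3 cows and 607 to 1010 in the low SAA3 cows, and most of this came from CHI3L1, which epithelium and macrophages also make. Without CHI3L1 the sum of the other 18 was 1441, 1305 and 905, against 586 to 893. The granule enzymes MPO and ELANE, picked after their values were seen, differed by -0.36 and -0.19 log2, the integrin ITGAM by -0.05 and the chemokine receptor CXCR1 by 0.11. MPO was at 3.76, 4.12 and 3.92 log2, against 4.05, 4.32 and 4.56, near the lower end of the scale. No value in the table is 0, and its lowest is 2.26. None of the 19 T and NK cell markers and none of the 9 B and plasma cell markers was graded in either direction. In lists of this length that is close to the shares of all symbols (5.88% and 4.45%). The summed intensity of the T and NK cell markers was 1225, 940 and 734, against 632 to 825 in the low SAA3 cows. That of the B and plasma cell markers was 9189, 5216 and 5249, against 3473 to 5523. The part of macrophages and neutrophils in the defence transcripts above was not tested.

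The luminal epithelial list had 6 of 17 genes graded higher and 1 lower. KRT8, a keratin of luminal cells, was at 10.81, 10.58 and 9.19 log2, against 6.90, 8.15 and 8.41, and KRT7, another luminal keratin, at 9.52, 9.44 and 8.38, against 7.54, 7.93 and 8.23. EPCAM, an adhesion molecule of epithelium, was at 11.91, 12.04 and 11.29, against 10.32, 10.74 and 11.12. The 3 cows lay above all others for each of these. Of 8 basal and myoepithelial markers 2 were graded higher (25%, against 5.88% of all symbols). One was TAGLN, a smooth muscle actin-binding protein, at 9.74, 9.79 and 9.38, against 8.24, 8.63 and 9.14. In the connective tissue list none of 25 was graded higher, although 22 had higher means in the high SAA3 cows (median difference 0.61 log2). There the summed intensity was 21120 and 21543 in the highest cows, but 10222 in the intermediate cow, within the 7698 to 13297 of the low SAA3 cows. None of the 19 endothelial markers was graded, which in a list of this length is close to the shares of all symbols.

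Another list held transcripts of STAT3 signalling and of involution, the regression of the gland when milk removal stops. Of its 31 genes, 7 were graded higher (22.6%, against 5.88% of all symbols) and 1 lower (3.23%, against 4.45%). A higher mean in the high SAA3 cows was found in 20. STAT3, the transcription factor that starts involution in the mouse, was at 8.83, 8.52 and 8.14 log2, against 7.24, 7.54 and 7.85. OSMR, the receptor of oncostatin M, which signals through STAT3, was at 8.26, 8.41 and 7.96, against 6.37, 6.74 and 7.13. PIK3R1, a regulatory subunit of phosphoinositide 3-kinase, was at 7.53, 7.67 and 6.64, against 5.89, 6.07 and 6.46. CEBPD, a transcription factor of the acute phase and of involution, was at 10.75, 10.63 and 10.42, against 9.28, 9.71 and 10.22. STAT3 and CEBPD were picked after their values were seen. In the separate list of lactation hormone signalling 1 of 11 genes was graded higher and 1 lower, and 3 had a higher mean (median difference -0.30 log2). The one graded higher was PRLR, the prolactin receptor, at 9.97, 10.29 and 9.05 log2, against 8.15, 8.77 and 8.89. The one graded lower was IGF1, a growth factor induced by growth hormone, at 7.70, 7.74 and 8.03, against 8.22, 8.52 and 8.74.

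Several other graded higher transcripts belong to stress defence and transport. SOD2, the mitochondrial superoxide dismutase, was at 13.30, 13.22 and 11.26 log2, against 9.79, 10.16 and 10.56. In the antioxidant list 4 of 23 were graded higher (17.4%, against 5.88% of all symbols) and none lower. TXN and HMOX1 were not graded, since the intermediate cow lay within the range of the low SAA3 cows. TXN was at 11.46, 11.81 and 10.16 log2, against 9.79, 10.13 and 10.56, and HMOX1 at 8.70, 8.64 and 7.32, against 6.90, 7.20 and 7.65. FRRS1, a ferric reductase, was at 8.26, 8.96 and 7.29, against 4.64, 5.02 and 5.54, and the intermediate cow stood 1.75 log2 above the nearest low SAA3 cow. SLC6A14, an amino acid transporter, was at 5.98, 5.88 and 4.05, against 2.89, 3.24 and 3.49. CTSC, the protease that activates granule enzymes, was at 11.13, 10.26 and 8.58, against 7.75, 7.89 and 8.35. FOLH1, a glutamate carboxypeptidase, was at 9.41, 8.48 and 6.91, against 5.39, 5.96 and 6.81, a gap of 0.097 log2 between the intermediate and the nearest low SAA3 cow.

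Milk fat transcripts were on the lower side. Of 43 genes of fatty acid and triacylglycerol synthesis, 7 were graded lower and 1 higher, 9 had a higher mean in the high SAA3 cows, and the median difference was -0.47 log2. Their summed intensity was 50268, 61865 and 78810 in the high SAA3 cows, against 80285 to 111830 in the low SAA3 cows. With quantile normalization 12 were graded lower and 2 higher. Of 10 adipocyte markers 1 had a higher mean in the high SAA3 cows and 1 was graded lower (median difference -0.21 log2). Their summed intensity was 4321, 7877 and 8382 in the high SAA3 cows, against 7920 to 12667 in the low SAA3 cows. The part of adipocytes in the milk fat transcripts was not tested. GPAT4, which attaches the first fatty acid to glycerol phosphate, was at 6.86, 7.31 and 7.79 log2, against 8.42, 9.03 and 9.42. LPL, which frees fatty acids from blood triacylglycerol, was at 11.10, 11.07 and 11.49, against 11.56, 12.85 and 13.30. For LPL the intermediate cow was 0.064 log2 below the nearest low SAA3 cow. ACACA, the first committed enzyme of fatty acid synthesis, was at 4.78, 4.88 and 5.93, against 6.13, 6.33 and 6.70. CD36, a fatty acid receptor, was at 11.65, 12.09 and 12.49, against 12.81, 13.08 and 13.24.

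Proteins of the fat globule membrane and the droplet gave the same order in part. MFGE8, a globule membrane glycoprotein, was at 9.62, 10.21 and 10.64 log2, against 11.32, 11.64 and 12.41. FABP3, a fatty acid binding protein, and PLIN2, a coat protein of lipid droplets, were graded lower with smaller differences of -0.64 and -0.50 log2. BTN1A1, XDH and SCD differed by -0.58, -0.29 and -0.65 log2 but were not graded, since the intermediate cow lay among the low SAA3 cows. In the cholesterol synthesis list 2 of 18 were graded lower (11.1%, against 4.45% of all symbols) and none higher (median difference -0.45 log2).

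Some transporters of the secretory cell were also on the lower side, while SLC6A14, given above, was graded higher. Of 23 genes of lactose synthesis and nutrient transport 5 were graded lower (21.7%, against 4.45% of all symbols) and none higher. A higher mean in the high SAA3 cows was found in 7 of the 23, and the median difference was -0.16 log2. SLC1A5, which carries glutamine, was at 6.96, 6.75 and 7.64 log2, against 8.18, 8.71 and 8.88. SLC7A5, a carrier of large neutral amino acids, was at 7.76, 7.40 and 7.71, against 8.70, 9.88 and 10.64, and missed the order only because the intermediate cow lay between the highest cows. SLC2A1, the glucose transporter of the basal membrane, which was picked after its values were seen, was at 6.55, 6.79 and 7.47, against 7.60, 8.09 and 8.25. SLC5A1, another glucose transporter, differed by -0.19 log2 and was not graded. ABCG2, which moves riboflavin and drugs into milk, was at 10.32, 10.99 and 11.86, against 12.10, 12.66 and 12.99.

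**Figure D3:**
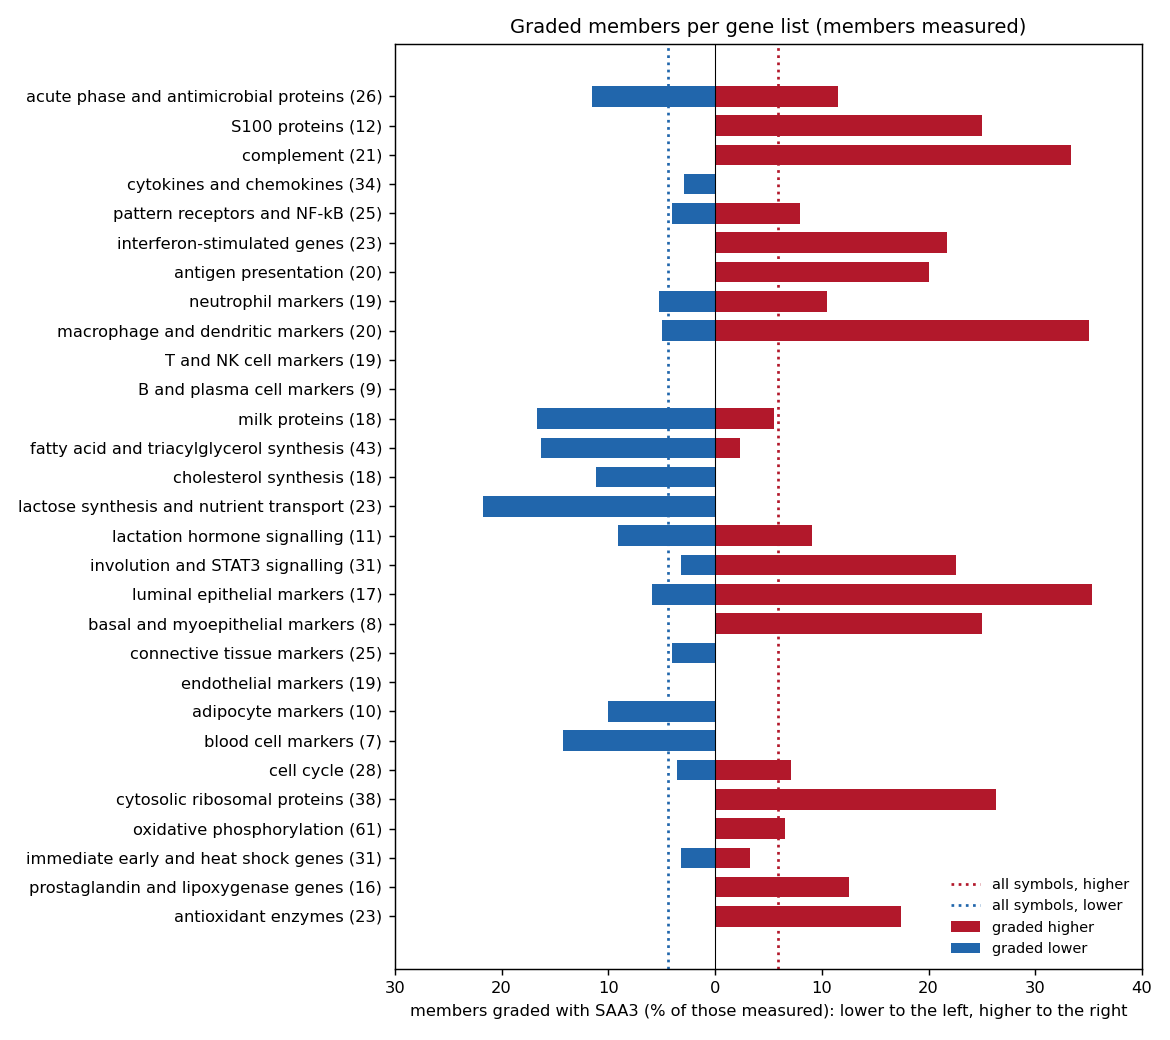
Percent of each list's measured genes graded higher (to the right) and graded lower (to the left) with SAA3, with dotted lines for the share over all 6697 symbols (5.88% and 4.45%). Complement has 7 of 21 genes graded higher and none lower, and fatty acid and triacylglycerol synthesis 7 of 43 graded lower and 1 higher.

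In the milk protein list 3 of 18 genes were graded lower (16.7%, against 4.45% of all symbols) and 1 higher. A higher mean in the high SAA3 cows was found in 7 of the 18 (median difference -0.08 log2). With quantile normalization 6 were graded lower and 1 higher. The main milk protein transcripts, which follow, did not separate the cows. CSN3, kappa-casein, was at 14.73, 14.74 and 14.71 log2, against 14.63, 14.68 and 14.73, and PAEP, beta-lactoglobulin, at 14.81, 14.78 and 14.74, against 14.70, 14.76 and 14.80. LALBA, the cofactor of lactose synthase, and CSN1S1, an alpha-casein, differed by -0.04 and -0.12 log2. All lie in the compressed top of the scale, where a difference can be understated. Outside the lists, PTHLH, the parathyroid hormone-related protein through which the lactating gland draws on bone calcium, was at 8.85, 8.19 and 9.53 log2, against 9.63, 10.82 and 11.04. BDH1, a ketone body dehydrogenase, was at 5.04, 5.15 and 5.53, against 5.96, 7.54 and 7.90. TMOD4, a tropomodulin that caps actin filaments in muscle, was at 4.68, 4.99 and 7.32, against 7.94, 8.64 and 8.96, and SHISAL2B at 2.69, 4.06 and 5.21, against 6.00, 6.73 and 9.18. For all 4 the intermediate cow lay below every low SAA3 cow. TECTB, SELENBP1, SLC25A21, UBE2F and CBS were also among the 15 graded lower symbols with the largest differences, at -2.30 to -1.39 log2.

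All 38 cytosolic ribosomal protein genes had higher means in the high SAA3 cows (median difference 0.36 log2), and 10 were graded higher. With quantile normalization 28 of 38 were higher, the median was 0.05 log2, and 2 were graded, so this pattern moved with the scaling. The oxidative phosphorylation list turned its direction with the same setting: the median difference over 61 genes was 0.07 log2 as deposited and -0.15 log2 after quantile normalization.

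The place of the intermediate cow was as follows. Taking the low SAA3 mean as 0% and the mean of the highest cows as 100%, it stood at a median of 51.7% for graded higher probe sets (quartiles 40.6% and 65.0%) and 56.1% for graded lower ones (45.0% and 69.5%). The definition of graded holds this place between 0% and 100%, and probe sets that were not graded are left out of these medians. On SAA3 itself, which made the groups, it stood at 46.6%. Among the named genes it was at 48.3% for CHI3L1, 50.7% for CFI and 60.3% for LTF, but at 21.8% for S100A2 and 22.8% for CTSC. The highest cows lay outside the other 12 in the higher direction for 1846 probe sets and in the lower direction for 1939. The next cow in the order was the intermediate cow for 518 of the 1846 (28.1%) and 483 of the 1939 (24.9%), more often than any other cow. The Omega cow of block 304 came next, with 340 (18.4%) and 275 (14.2%), although its SAA3 was 7.25 log2. The Omega cow of block 305, next to the intermediate cow by SAA3, was next for 86 (4.66%) and 89 (4.59%). The count of cows in the middle was thus not ordered by SAA3.

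**Figure D4:**
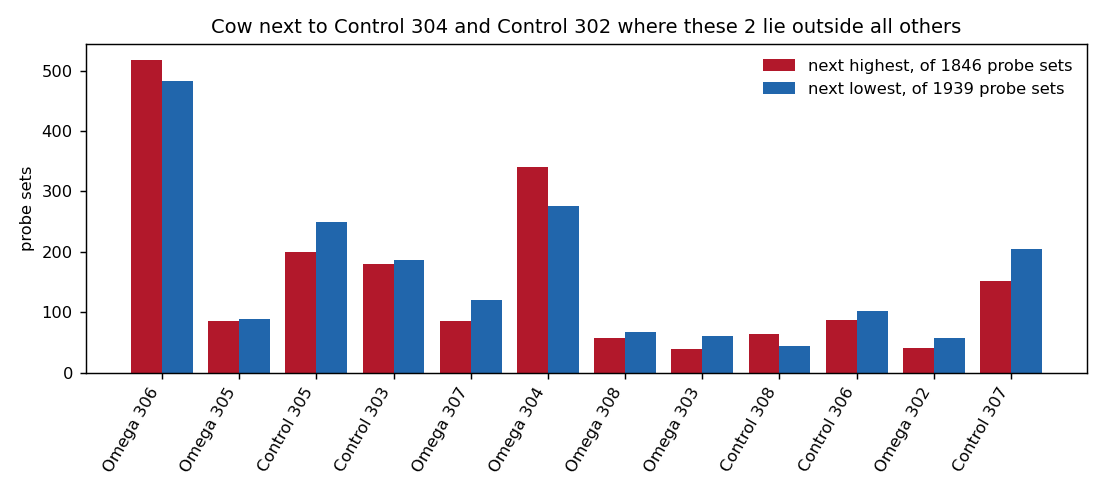
Number of probe sets for which each of the 12 other cows lay next to the highest cows, among 1846 in which the highest cows were above all others and 1939 in which they were below. The Omega cow of block 306 has 518 and 483, and the Omega cow of block 304 has 340 and 275.

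The highest cows differed from each other by over 2 log2 in 34 probe sets, 29 of them higher in the Control cow of block 304, while the median absolute difference over all probe sets was 0.169 log2. These transcripts were picked after their values were seen. They included, beside HP, LAP, S100A9 and C4BPA, the B cell attractant CXCL13, at 6.41 log2 in the cow of block 304 and 3.32 in that of block 302, against 2.75 to 3.44 in the low SAA3 cows. VNN1, a pantetheinase, was at 7.69 and 4.27, against 3.41 to 3.91. PTGDS, a prostaglandin D synthase, was at 13.19 and 10.95 in the same cows and 9.68 in the intermediate cow, against 8.19 to 10.73. BOLA, a class I histocompatibility gene whose probes are open to differences between alleles, was at 10.74 and 5.38, against 7.96 to 10.70. For CXCL13 and VNN1 only the Control cow of block 304 stood well above the low SAA3 cows.

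SAA3 also varied among the 11 low SAA3 cows, from 6.70 to 9.14 log2, and these differences were not used to form the groups. A limma fit of each of 10739 other probe sets on SAA3 in these cows gave 2 with an adjusted p under 0.05 (0.0186%), both increasing, and 535 with an unadjusted p under 0.05 (4.98%), of which 293 (2.73%) increased and 242 (2.25%) decreased. FOS, an immediate early transcription factor that many stimuli switch on within minutes, rose by 1.67 log2 per log2 of SAA3 (95% interval 1.30 to 2.04, limma adjusted p = 0.00178). ATF3, a stress-induced transcription factor, rose by 1.11 (0.78 to 1.44, limma adjusted p = 0.0278). Both calls, but not the size of the slopes, turned on the 2 cows farthest from the median SAA3, the Omega and the Control cow of block 305. These had FOS at 9.29 and 8.98 log2, against 4.86 to 7.28 in the other 9. Without them the slope was 1.38 (0.60 to 2.16) for FOS and 1.24 (0.55 to 1.94) for ATF3, and both had a limma adjusted p of 0.695. The fit without them gave 1 call, an unnamed probe set that decreased.

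FOS did not continue to the high SAA3 cows, where it was at 7.88, 7.53 and 5.19 log2, inside the range of the low SAA3 cows, and ATF3 was at 5.45, 5.37 and 6.12. The next largest increases by p were those of JUN, a partner of FOS, at 0.68 per log2 of SAA3, FOLH1, at 0.46, and CHI3L1, at 1.01, with limma adjusted p of 0.156, 0.156 and 0.283. Without the Omega cow of block 304 FOLH1 passed the threshold, and without the Control cow of block 306 CHI3L1 did (adjusted p = 0.0336 and 0.0175). The 5 decreases with the smallest p, in KLHL40, RCC2, SLC3A2, XRCC5 and VAMP7, had slopes from -0.36 to -0.27 and adjusted p of 0.421 to 0.697. In the list of immediate early and heat shock genes 27 of 31 slopes were positive, against 47.0% of all symbols, and in the complement list 14 of 21. These lists were not alone. Positive slopes numbered 33 of 38 for cytosolic ribosomal proteins, 17 of 20 for macrophage and dendritic markers and 10 of 12 for S100 proteins. The lowest share was that of cholesterol synthesis, 4 of 18.

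Of the 517 graded higher probe sets other than SAA3, 381 (73.7%) had a positive slope among the low SAA3 cows, against 45.3% of all probe sets, with a median of 0.043 log2 per log2 of SAA3. Of the 483 graded lower ones 343 (71.0%) had a negative slope, against 54.7% of all, with a median of -0.029. None of either passed the adjusted threshold in the limma fit, and 53 and 9 had an unadjusted p under 0.05. Without the 2 cows of block 305, 333 (64.4%) of the graded higher probe sets had a positive slope, against 46.1% of all. Of the graded lower ones 280 (58.0%) then had a negative slope, against 53.9% of all, so that their share came close to that of all probe sets. LBP and SLC6A14, with large differences between the groups, had slopes of 0.023 and 0.012 log2 per log2 of SAA3 in the low SAA3 cows.

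**Figure D5:**
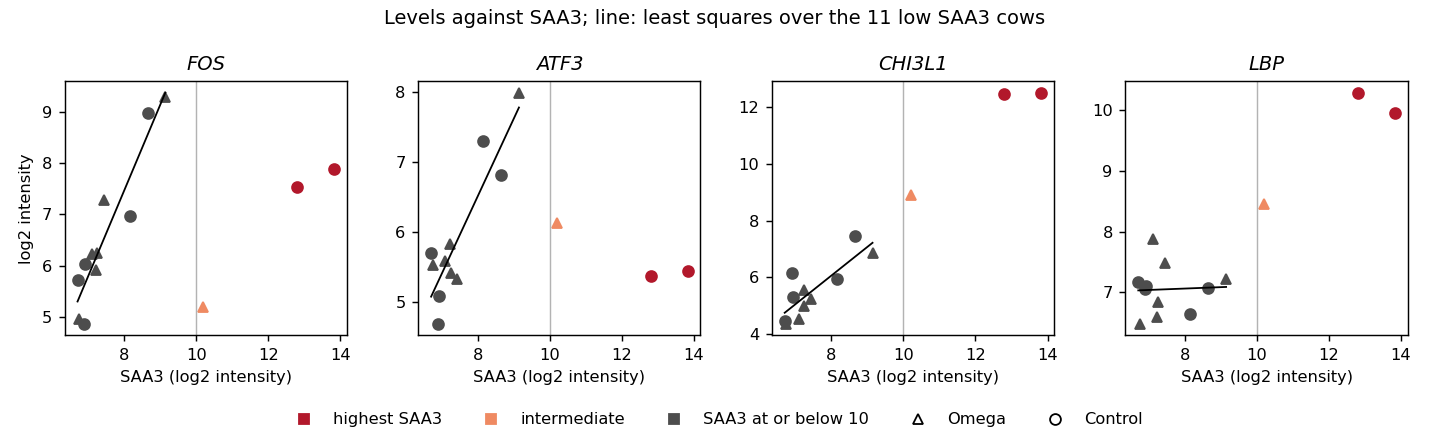
Log2 intensity of single transcripts (vertical axes) against SAA3 (horizontal axes, log2) in all 14 cows, with the least squares line through the 11 low SAA3 cows. FOS increases to 9.29 log2 in the low SAA3 cows and lies between 5.19 and 7.88 log2 in the high SAA3 cows.

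Diet was compared because 2 of the 3 high SAA3 cows were Control cows, so that a diet difference and a high SAA3 difference overlap. With the block as a fixed effect, limma called 0 of 10740 probe sets (0.0%) between Omega and Control cows after adjustment, with 0.468 as its smallest adjusted p. Before adjustment 1132 (10.5%) had a p under 0.05, 492 of them (4.58%) higher and 640 (5.96%) lower in Omega cows. CHI3L1 was lower in Omega than in Control cows by -1.98 log2 (95% interval -4.73 to 0.77), and LPL higher by 0.24 (-0.45 to 0.92). All 15 named graded higher genes, SAA3 included, had a negative diet difference, with a median of -0.85 log2. All 15 graded lower genes had a positive one, with a median of 0.37. The choice of the graded genes favours these signs, since both highest cows were Control cows and lay beyond the intermediate Omega cow. They are thus no observation about diet. Without blocks 302, 304 and 306 the medians were -0.035 log2, with 6 positive and 9 negative, and 0.0055 log2, with 8 positive and 7 negative. Over all graded probe sets and without these blocks, 340 of the 518 graded higher had a negative diet difference (median -0.052 log2). Of the 483 graded lower, 326 had a positive one (median 0.049). With all blocks these counts were 495 and 461. Of all 10740 probe sets, 5256 had a negative and 5484 a positive diet difference without these blocks, and 5211 and 5529 with all blocks.

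Of the recorded traits, none separated the high from the low SAA3 cows after adjustment over 8 traits (exact two-sided permutation tests over 364 arrangements, smallest possible p 0.00275, and an exact Fisher test for diet). Fat production in the first 100 days of the previous lactation averaged 105.3 ± 34.4 in the high and 168.4 ± 41.4 in the low SAA3 cows (SD, n = 3 and 11), in a unit the labels do not state, with an exact permutation p of 0.0247 and an adjusted p of 0.198. Parity averaged 1.33 ± 0.58 in the high and 3.45 ± 1.69 in the low SAA3 cows (exact permutation p = 0.0989, adjusted p = 0.198). The labels give parity 2, 1 and 1 in the high SAA3 cows, and 1 to 6 in the low SAA3 cows. The stated design names no cows below parity 2, so what a parity label of 1 stands for is uncertain. These tests leave out the blocks, within which the stated design matched the cows. Each high SAA3 cow had a block mate with low SAA3 and the same parity label, and fat production was 145, 85 and 86 in the high SAA3 cows of blocks 304, 302 and 306, against 136, 99 and 96 in their mates. The trait differences thus lie between blocks. Milk production, protein production, fat content, calving date and array number had adjusted p of 0.198 to 0.694, and the Fisher test for diet gave p = 1.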

How the data were processed

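Mammary gland RNA of 14 cows was measured on Affymetrix bovine arrays, 1 per cow, so p-values reflect the spread between cows. The deposited values are log2 intensities in 1 table of 10852 rows. Per the submitters' processing notes RMA and GCRMA were the tools, with no version. It is not known which of these gave the log2 values. The 112 control probe sets were left out. Accessions, less their versions, were looked up in RefSeq's genes of the ARS-UCD2.0 assembly, which gave 1 symbol to 6749 of 10740 probe sets (6697 symbols) and left 3991 unnamed. Among them 717 probe sets shared all values with another. Where a symbol had several probe sets, that with the highest mean was used. No coordinates or sequences are printed. The number of arrays limits the precision.

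Cows were grouped by SAA3 above 10 log2. Tests were fitted in R 4.3.3 with limma 3.58.1 (lmFit and eBayes, Benjamini-Hochberg adjustment, threshold 0.05), and permutation tests were run in Python 3.11.15. The scripts were tested on simulated data. Diet was fitted with the block, whose pairing comes from the labels and stated design. Deviations within blocks correlated at -0.44 to 0.31.

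The members, the 29 gene lists (624 different genes measured) and the tests were chosen with earlier results of these data known. Named genes are the 15 graded higher and 15 graded lower symbols with the largest differences, up to 4 members of each list, a set of milk and defence genes, and the 5 smallest p in each direction for the slope. Others are said to have been picked after their values were seen. Alternatives were a filter on dim probe sets, quantile normalization, median centring, distinct sets of values, a size limit, diet as a covariate, no block, and leaving out cows or blocks.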

Additional observations from a re-analysis of the deposited data

Results flagged for a closer look

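Within the 7 cows of a diet, single cows stood far from the others for 18 of 288 gene and diet groups checked, where chance flags about 1 in 20 groups. In the Control cow of block 304, CXCL13 (6.41 log2), HP (10.00), POU2AF1 (5.36), MZB1 (6.59) and JCHAIN (12.13) stood above the other Control cows, and SQLE (7.53) and FABP4 (11.64) below them. In the Control cow of block 302, BOLA (5.38) stood below and POSTN (6.00) above the other Control cows. In the Omega cow of block 306, C4BPA (9.46, next Omega cow 4.30), HP (6.12), OSMR (7.96), FRRS1 (7.29) and IFI30 (7.04) stood above and ACACA (5.93) below the other Omega cows. In cows with low SAA3, ATF3 (7.99) and CCL2 (5.40) stood highest in the Omega cow of block 305, and VAMP7 (5.69) lowest in the Control cow of block 305. By cow, 7 of the 18 fell on the Control cow of block 304 and 6 on the Omega cow of block 306, which the choice of genes by their difference in these cows favours.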

How the results depend on the processing

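The same 3 cows were above 10 log2 with quantile normalization and median centring. Graded probe sets numbered 483 higher and 332 lower with the filter on dim probe sets, 499 and 467 over distinct sets of values, 487 and 497 with median centring, and 351 and 484 with quantile normalization, of which 319 and 340 were graded in the values as deposited. With a difference over 1 log2 required, 119 and 49 remained. Leaving out 1 high SAA3 cow gave 638 to 953 higher and 651 to 1050 lower. Without the Omega cow of block 306 the counts were 953 and 1050, of which 225 and 258 were graded with all cows, because the Control cow of block 302 then takes its place. Of the 144 named genes, 29 moved by more than the spread between cows with quantile normalization and none with median centring. On leaving out 1 high SAA3 cow, 63 moved without the Omega cow of block 306. Without the Control cow of block 304 or 302, 41 and 21 moved, apart from those that reversed. These differences reversed: BOLA ran from -2.49 to 0.19 log2 on leaving out 1 high SAA3 cow, reversed without the Control cow of block 302, and POU2AF1 and MZB1 from -0.27 to 0.84 and from -0.24 to 0.77, reversed without the Control cow of block 304. The SAA3 slope gave 1 call with diet as a covariate (FOS) and 1 without the cows farthest from the median, and 1 to 4 on leaving out 1 cow. FOS was called in each of these single-cow fits, and ATF3 was not without the Omega cow of block 303, 305 or 308 or the Control cow of block 303 or 308. Diet gave 0 calls in every setting, including the fit with no replicate block (0 adjusted, 1084 unadjusted), and leaving out 1 block moved the unadjusted count to 616 to 1693. The cause of these changes was not tested otherwise. With 3 cows in the high group and no record of udder health or sampling day, the description covers these cows only.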

Other observations

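Cell cycle, immediate early and eicosanoid genes gave a few further graded transcripts. MCM6, a helicase subunit of DNA replication, was at 4.92, 4.75 and 4.71 log2 in the cows of blocks 304, 302 and 306, against 3.50, 3.70 and 4.03 (lowest, median, highest) in the low SAA3 cows, but only 2 of 28 cell cycle genes were graded higher and 1 lower. EGR1, an immediate early transcription factor, was graded lower, at 5.35, 5.17 and 6.12, against 6.23, 6.45 and 6.71, unlike FOS, which was not graded. PTGES, a prostaglandin E synthase, was graded higher, at 6.10, 5.79 and 5.59, against 4.67, 4.87 and 5.11. ALOX15, a lipoxygenase, was at 7.20 and 7.80 in the highest cows and 9.08 in the intermediate cow, against 9.01, 10.37 and 11.16, and the intermediate cow overlapped with the low SAA3 cows. LTA4H, which makes leukotriene B4, was at 8.97, 10.18 and 9.27, against 6.17, 6.69 and 8.20, so that the groups did not overlap while the order differed from that of SAA3.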
